A study of Mus musculus with 24 samples.

Results

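Lysosomal hydrolases and lysosomal membrane proteins were described here as a set of 37 genes, named by symbol without cathepsins and without the vacuolar proton pump, across cultures of mouse osteoclast precursors. All 37 had a row among the 10721 genes of the deposited table, and all 37 passed the filter on low values. The samples were 24 RNA-seq libraries of bone marrow cells from wild-type (WT) and STING-deficient (KO) female mice of 10 to 12 weeks. STING is the adaptor that relays cytosolic DNA sensing to type I interferon, and RANKL is the cytokine that drives osteoclast formation. Day 0 cells of both genotypes had spent 72 hours in 40 ng/mL mCSF without RANKL, and the cells of days 2, 3 and 4 were replated at 25000 per well in 10 ng/mL RANKL with 20 ng/mL mCSF, with part of the medium renewed at day 2. Each library pooled the wells of 1 mouse and day, and the 8 groups of genotype and day held 3 mice each. WT mice 480, 529 and 531 and KO mice 481, 528 and 532 each gave all 4 days, and lists of 3 values below follow that order. How the KO allele was made is not stated in the labels. No culture was kept without RANKL after day 0, so RANKL, the lower mCSF and time cannot be told apart in any change between days. In comparisons with day 0, replating cannot be told apart from these either.

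Lysosomes are acidic organelles in which more than a single class of macromolecule is broken down: sulfatases and glycosidases strip glycosaminoglycans and glycoproteins, and lipid hydrolases work with saposin-like activators on sphingolipids. Most soluble hydrolases reach the lysosome on mannose phosphate receptors, while heavily glycosylated membrane proteins such as LAMP1 and LAMP2 line its membrane. In osteoclasts, lysosome-related vesicles fuse with the plasma membrane facing bone and release acid hydrolases into the resorption space, so lysosomal genes serve both degradation inside the cell and secretion.

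The values were FPKM, fragments scaled to transcript length and to the mapped total, and their sum per sample ran from 459180 to 734974. Sting1, listed as Tmem173, measured 21.3 to 28.7 FPKM in WT and 4.57 to 5.08 FPKM in KO at day 0, and 3.38 to 5.01 and 2.65 to 2.86 FPKM at day 4, so KO samples kept reads on it. The labelled cell type was checked by markers. The summed FPKM of 10 osteoclast markers ran from 106 to 158 in WT at day 0, from 8429 to 11051 at day 2 and from 41520 to 48309 at day 4. Of 10 macrophage markers 9 had a row, and their sum went from 1091 to 1643 in WT at day 0 to 453 to 524 at day 2 and 986 to 1118 at day 4. Taken singly, 6 of the 9 were lower and 1 higher at day 4 than at day 0 in WT (median log2 difference -1.77). Of all genes 42.7% were lower and 39.2% higher. The 1 higher was Csf1r, which went from 376 ± 166 to 730 ± 38.3 FPKM (SD, n = 3) and held most of the day 4 sum. The day 0 cultures also held RNA of other cells: 8 neutrophil markers summed to 5863 to 16062 FPKM in WT and 7451 to 12960 in KO at day 0, and to 127 to 220 and 181 to 205 at day 2, and none of the 8 was at 0 in all samples of a group. Of 8 B cell markers 5 had a row. Their sum was 22.3 to 77.2 FPKM in WT and 37.4 to 102 in KO at day 0 and at most 0.595 in any later sample. At day 2, 2 of the 5 were at 0 in all WT samples and 3 in all KO samples. Of 5 erythroid markers 2 had a row, at a sum of 9.10 to 28.2 FPKM in WT at day 0 and at most 0.354 later, and 2 of 5 stromal markers summed to at most 2.49 in any sample. Of 5 T and NK cell markers 0 were matched, and these cells are not analysed here. In bulk samples fewer cells of a type and less RNA per cell cannot be told apart, and the part of these other cells in the lysosomal differences from day 0 was not tested. Differences between days 2, 3 and 4 do not involve the day 0 samples.

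Most of the 37 lysosomal genes fell in the first days of RANKL, and most rose in the days after. In WT cells 23 of the 37 genes fell and 4 rose from day 0 to day 2, where 37.5% of the 10081 genes tested fell and 38.5% rose. The median log2 difference of the 37 was -0.61, against 0.00 over all genes tested. From day 2 to day 3, 27 rose and 2 fell, where 24.9% of all genes rose and 24.2% fell (median 0.42). From day 3 to day 4, 30 rose and 0 fell, where 19% and 19.8% of all genes did so (median 0.41), and 31 of the 37 had an unadjusted p below 0.05 in that step, as did 47.5% of all genes. A gene was called where limma's test on log2(FPKM + 1), weighted by day, gave a Benjamini-Hochberg adjusted p below 0.05 over all genes tested. On that scale differences of genes at low FPKM are understated. Shares of all genes are over the 10081 tested genes of the deposited table. How the table's genes were chosen is not given, so these are not shares of the whole transcriptome.

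In KO cells, 20 genes fell and 4 rose from day 0 to day 2, where 36.5% and 37.1% of all genes did so (median -0.44). From day 2 to day 3, 28 rose and 1 fell (23.6% and 20.3% of all genes, median 0.48). From day 3 to day 4, 32 rose and 0 fell (18.2% and 17.6%, median 0.40). WT and KO contrasts rest on different mice. The 20 genes that fell in KO by day 2 were all among the 23 of WT, and the 27 and 30 that rose in WT in the later steps were all among the 28 and 32 of KO. The 4 genes that rose by day 2, Arsb, Ids, Manba and Smpd1, were the same in both genotypes. The mean FPKM was lowest at day 2 for 25 genes in WT and 26 in KO, 24 of them shared. For all genes, neither the share called alike in both genotypes nor the share lowest at day 2 is given here. It was lowest at day 3 in WT for Lamp1, Lamp2, Lgmn and Scarb2 and in KO for Lamp1, Lamp2 and Scarb2.

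**Figure D1:**
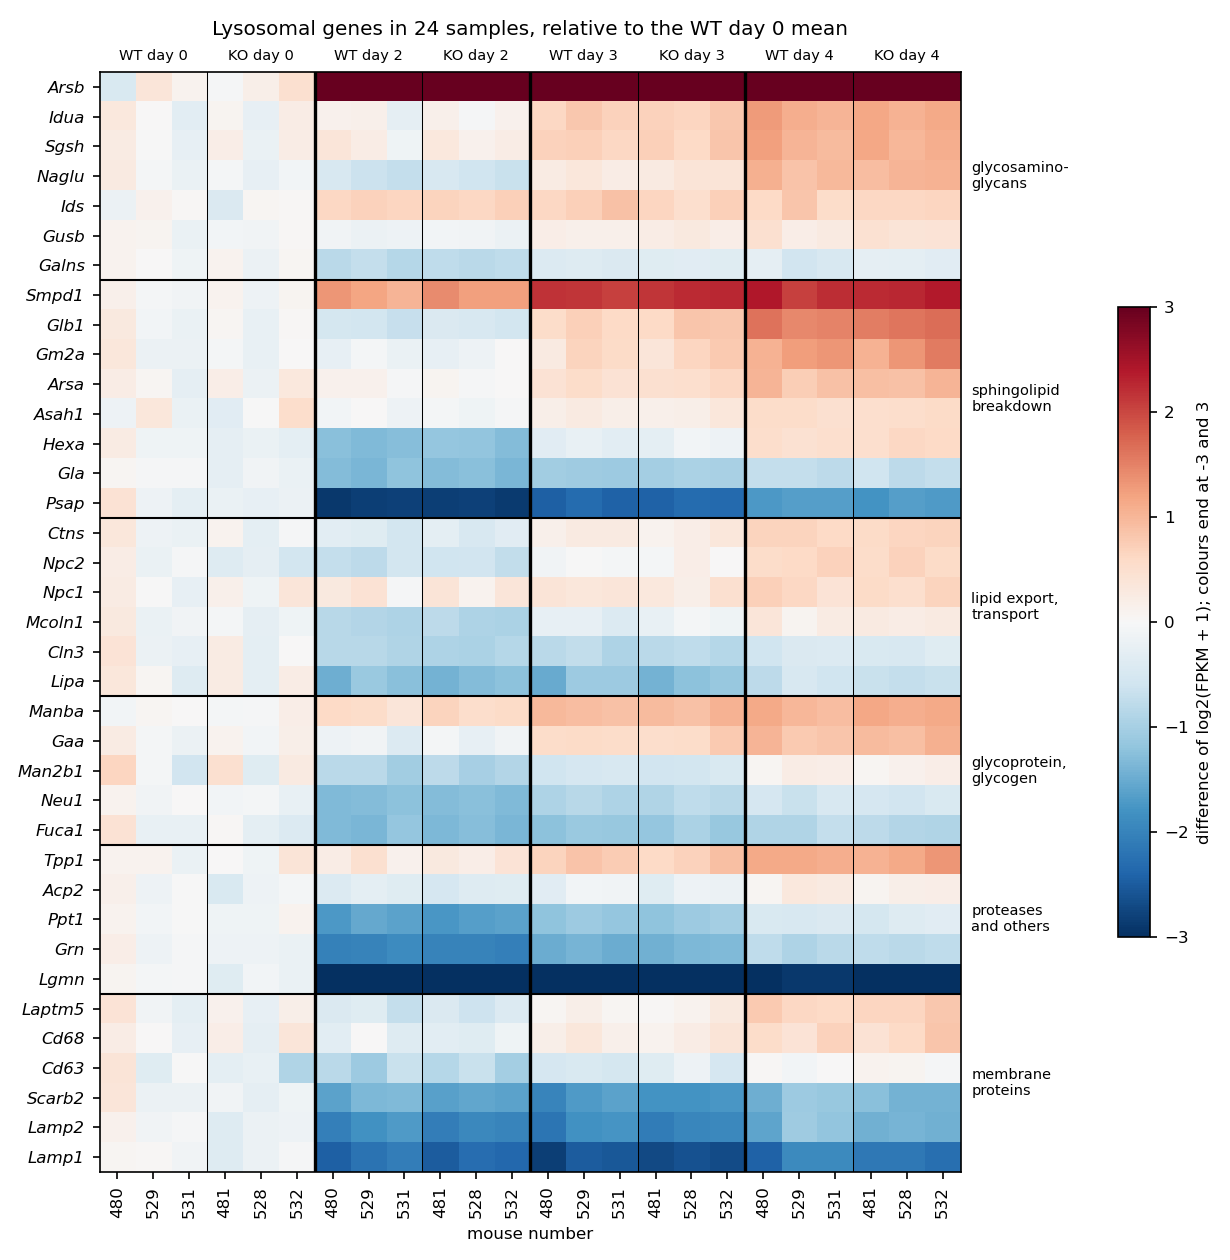
Difference of log2(FPKM + 1) from the WT day 0 mean for the 37 genes (rows, by role) in the 24 samples (columns, by day, genotype and mouse). Red is above and blue below the WT day 0 mean, and colours end at -3 and 3, which Arsb passes above and Lgmn below. Most rows are bluest at day 2 and redder again by day 4, in WT and in KO.

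Over the whole course the set split. Against day 0, 20 genes were higher and 13 lower at day 4 in WT, where 39.2% of all genes were higher and 42.7% lower (median 0.49 for the 37, -0.07 for all genes). In KO 23 were higher and 13 lower (38.6% and 40.8% of all genes, median 0.47 against -0.05). All 20 and all 13 of WT were among those of KO, and the samples of day 0 and day 4 did not overlap for any of the 33 in WT, where day 4 lay above day 0 without overlap for 39.6% of all genes and below it for 42.9%. These shares are the background for the role groups and lists that follow. The mean was highest at day 0 for 14 genes and at day 4 for 22 in WT, and Ids was highest at day 3. Shares of all genes are not given here for calls shared by the genotypes or for the day of the highest mean. Each comparison with day 0 uses the same day 0 samples, so the day 2 and day 4 differences from day 0 are not independent of each other.

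**Figure D2:**
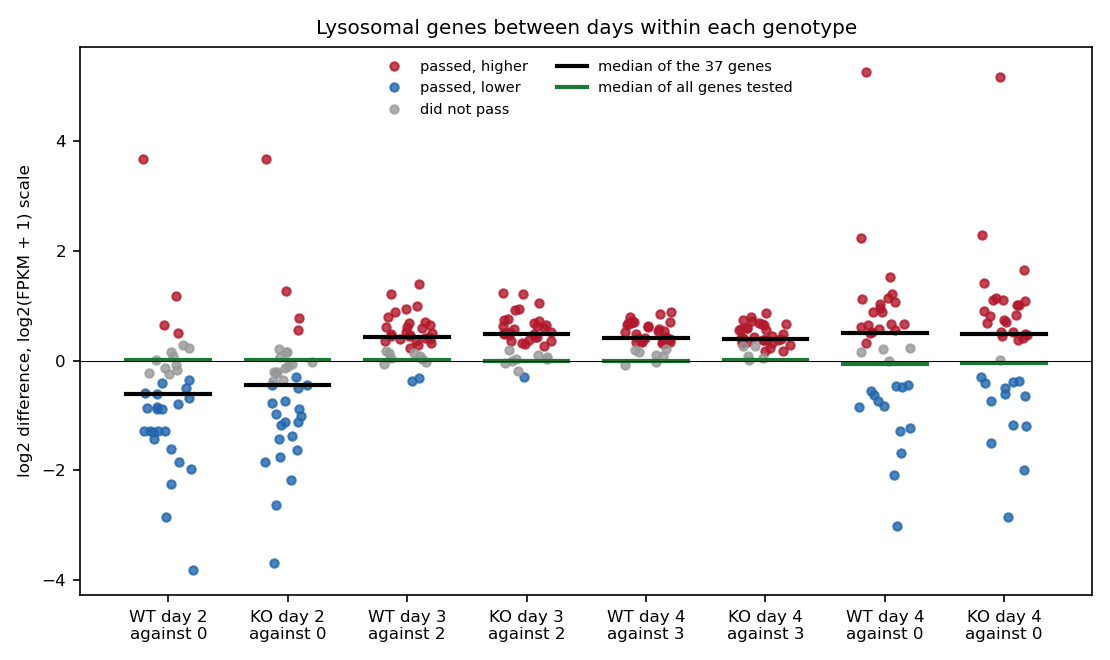
Log2 difference of the 37 genes (points) for each pair of days in WT and KO, on the log2(FPKM + 1) scale, with black bars for the median of the 37 and green bars for that of all genes tested. Red and blue points passed the limma test and grey ones did not; the 37 lie mostly below 0 from day 0 to 2 and mostly above it in both later steps.

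On a linear scale, the share of the set in the table's summed FPKM also fell to day 2 and was larger on each later day. The 37 genes took 2.71% ± 0.433 of the table's summed FPKM in WT at day 0, 1.40% ± 0.114 at day 2, 1.90% ± 0.075 at day 3 and 2.61% ± 0.065 at day 4 (SD, n = 3). In KO the shares were 2.68% ± 0.296, 1.41% ± 0.047, 1.91% ± 0.115 and 2.60% ± 0.095. Psap alone made up 37.5% ± 3.35 of the set's FPKM in WT at day 0 and 14.6% ± 0.551 at day 2. Without Psap the set took 1.69% ± 0.196 in WT at day 0 and 2.19% ± 0.047 at day 4, and 1.71% ± 0.201 and 2.2% ± 0.086 in KO. With Psap the day 4 shares lay within the range of day 0, and without Psap every day 4 share lay above every day 0 share in both genotypes. The table's total FPKM was itself larger at day 0 (573661 to 734974) than at day 4 (487890 to 537906). As a plain sum the 37 genes held 18762 ± 3570 FPKM in WT at day 0, 6662 ± 233.7 at day 2, 9293 ± 414 at day 3 and 13409 ± 324 at day 4, and every day 4 sum lay below every day 0 sum in both genotypes. Without Psap the sum was 11641 ± 1539 FPKM in WT at day 0 and 11237 ± 344 at day 4, which overlapped. In KO it was 10595 ± 499 and 11582 ± 502, which did not.

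**Figure D3:**
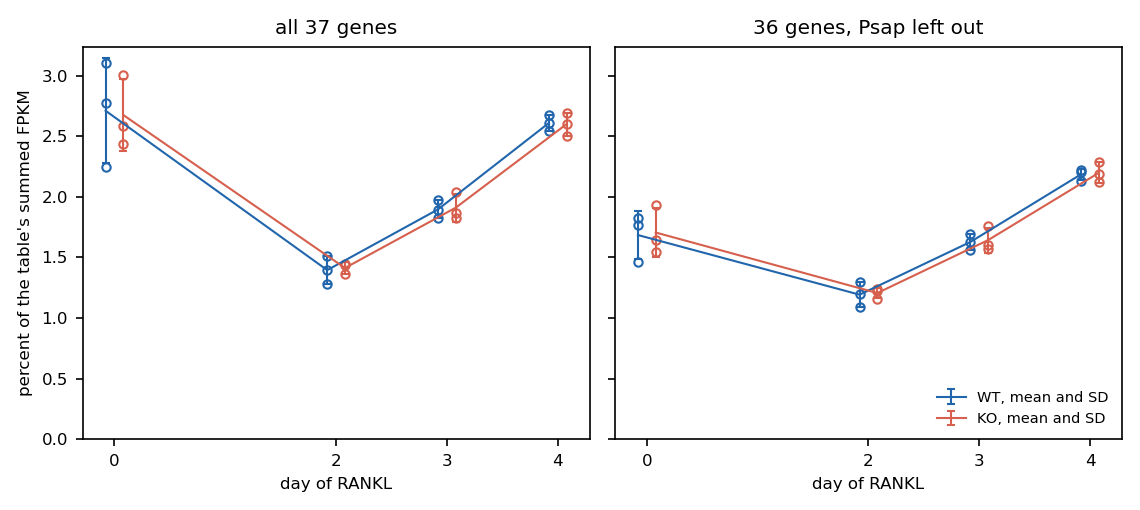
Share of the table's summed FPKM taken by the 37 genes (left) and by the 36 without Psap (right), in percent, by day of RANKL. Open circles are samples and lines with bars are group means and SD; the share is lowest at day 2 in both panels, and day 4 stands above day 0 in the right panel.

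Many lysosomal genes carry an E-box variant upstream that factors of the MiT-TFE family (TFEB, TFE3, MITF and TFEC) bind, and the stretches below are shown because the members that hold it were compared with those that do not. RefSeq promoter windows of GRCm38.p6, 250 bases before to 50 after a start, were at hand for 34 of the 37 genes. TCACGTG, searched on both strands, was in the windows of 10 of the 34 (29.4%) and of 4.29% of 27025 genes. The shorter CACGTG inside it was in the same 10, against 8.09% of genes, and TGAGTCA, an AP-1 site, was in 4 of the 34 (11.8%), against 5.95%. The 10 were Arsa, Cln3, Gaa, Gla, Glb1, Lamp1, Lgmn, Mcoln1, Naglu and Sgsh. The sequences run 5′ to 3′ on the gene's strand and end before its start, and capitals mark TCACGTG or its reverse complement. The number of matches counts stretches in capitals, and each stretch of Gla holds TCACGTG on both strands.
Lamp1 (chr8:13159059-13159160, plus strand, 4 matches): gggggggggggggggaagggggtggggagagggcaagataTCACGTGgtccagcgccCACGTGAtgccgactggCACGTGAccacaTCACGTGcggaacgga
Gla (chrX:134601153-134601255, minus strand, 2 matches): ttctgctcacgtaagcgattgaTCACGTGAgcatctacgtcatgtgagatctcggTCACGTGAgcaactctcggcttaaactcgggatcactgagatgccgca
Glb1 (chr9:114400989-114401075, plus strand, 1 match): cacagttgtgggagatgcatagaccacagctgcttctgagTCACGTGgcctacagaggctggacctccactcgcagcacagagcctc
Gaa (chr11:119267782-119267868, plus strand, 1 match): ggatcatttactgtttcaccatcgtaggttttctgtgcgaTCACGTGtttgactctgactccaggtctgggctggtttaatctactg
In Glb1 the match follows TGAG, so that TGAGTCA overlaps TCACGTG there. These members did not share a direction: Lamp1 and Gla fell and Glb1 and Gaa rose from day 0 to day 4. Of the 10 members with TCACGTG, 10 rose from day 3 to day 4 in WT, as did 19 of the 24 without it. Against day 0, 5 of the 10 were higher and 4 lower at day 4, against 13 and 8 of the 24. The medians from day 3 to day 4 were 0.47 and 0.46. A match is a stretch of letters and not a measured site.

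Among the enzymes of glycosaminoglycan breakdown, 6 of 7 rose from day 0 to day 4 in each genotype and Galns fell, where 39.2% of all genes rose in WT and 38.6% in KO. The fall of Galns in KO was lost without KO mouse 481 (adjusted p = 0.0905) or 532 (adjusted p = 0.103). Arsb (arylsulfatase B, which removes sulfate from dermatan and chondroitin sulfate; chromosome 13, 93771630 to 93943016, plus strand) had the largest rise of all 37. It measured 7.62, 14.2 and 11.8 FPKM in WT at day 0, 178, 165 and 116 at day 2, 405, 393 and 386 at day 3 and 547, 427 and 396 at day 4. In KO it measured 10.6, 12.4 and 15.7 FPKM at day 0, 208, 150.1 and 169 at day 2, 399, 379 and 442 at day 3 and 484, 469 and 508 at day 4. Every day 2 sample was above every day 0 sample, and days 3 and 4 overlapped in WT. The log2 difference from day 0 was 3.67 (SE 0.225, limma adjusted p = 1.39e-11) at day 2 and 5.25 (SE 0.222, limma adjusted p = 2.91e-14) at day 4, and in KO 5.15 (SE 0.222, limma adjusted p = 3.8e-14) at day 4. Arsb shares exon bases on the opposite strand with Gm26527 (1719 bases), and whether the counting used strand is not given in the sources used here.

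Idua (alpha-L-iduronidase, which acts on dermatan and heparan sulfate; chromosome 5, 108660331 to 108684557, plus strand) was not called at day 2 and rose later. Its WT samples measured 16.1, 12.8 and 10.1 FPKM at day 0, 13.9, 14.3 and 10.5 at day 2 and 32.3, 28.5 and 26.9 at day 4. Day 0 and day 2 overlapped (log2 difference 0.00, limma adjusted p = 0.992), while day 4 lay above both (log2 difference 1.13, SE 0.16, limma adjusted p = 2.11e-06). In KO, Idua went from 13.5, 10.6 and 15 to 29.7, 27.4 and 29.5 FPKM. Naglu, which trims heparan sulfate, dipped before it rose: 49.1, 42.7 and 47.7 FPKM in KO at day 0, 36.4, 33.3 and 31.9 at day 2 and 97.6, 105 and 106 at day 4. The 3 days did not overlap, and the difference from day 0 was -0.45 at day 2 and 1.13 at day 4 (limma adjusted p = 0.00192 and 2.28e-08), with 0.96 in WT at day 4. The heparan sulfamidase gene Sgsh rose by 1.07 in WT, the iduronate sulfatase gene Ids by 0.66 and Gusb, beta-glucuronidase, by 0.32 (limma adjusted p between 5.3e-06 and 0.00647). The call of Gusb was lost with only the groups compared (adjusted p = 0.07) and when WT mouse 531 was left out (0.24, adjusted p = 0.0994). Ids rose early, from 12.3 ± 1.36 FPKM at day 0 to 19.8 ± 0.576 at day 2, and stood at 20.01 ± 2.24 at day 4 (SD, n = 3). Its samples of days 2, 3 and 4 overlapped in both genotypes. In KO the differences at day 4 were 1.01 for Sgsh, 0.73 for Ids and 0.47 for Gusb. Galns, a sulfatase of keratan and chondroitin sulfate, fell from 40.2 ± 3.41 to 29.4 ± 3.42 FPKM in WT (log2 difference -0.44, SE 0.102, limma adjusted p = 0.000492).

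Of the 8 sphingolipid genes, 6 rose and 2 fell from day 0 to day 4 in each genotype. All 8 rose from day 2 to day 3, in WT and in KO, where 24.9% and 23.6% of all genes rose. In that step the rise of Asah1 was lost in WT without mouse 480 (adjusted p = 0.0622) or 531 (adjusted p = 0.0597). It was lost in KO without mouse 528 (adjusted p = 0.0665), and with equal weights in both. Smpd1 (acid sphingomyelinase; chromosome 7, 105554360 to 105558389, plus strand) measured 25.7, 21.7 and 21.3 FPKM in WT at day 0, 58.7, 52.7 and 47.6 at day 2, 106, 104 and 98 at day 3 and 125, 97.4 and 109 at day 4. It rose by day 2 and again by day 3, while days 3 and 4 overlapped (differences 1.18, 0.95 and 0.10, limma adjusted p = 1.2e-07, 2.67e-08 and 0.346). In KO it went from 24.7, 20.4 and 24.2 FPKM at day 0 to 112, 114 and 124 at day 4 (log2 difference 2.29, SE 0.131, limma adjusted p = 3.33e-12).

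Glb1 (lysosomal beta-galactosidase; chromosome 9, 114401076 to 114474898, plus strand) fell first and then rose more than any other member from day 3 to day 4. Its WT samples measured 92.1, 70.7 and 64.8 FPKM at day 0, 51.7, 51 and 46 at day 2, 111, 124 and 115 at day 3 and 232, 207 and 211 at day 4. Its KO samples measured 77.6, 64.2 and 77, 55.7, 53.5 and 50.9, 114, 134 and 133 and 219, 232 and 240.2 FPKM on the same days. No 2 of these days overlapped within a genotype. In WT the steps were -0.59, 1.22 and 0.89 (limma adjusted p = 0.000323, 5.98e-10 and 1.3e-07), and day 4 stood above day 0 by 1.52 (SE 0.126, limma adjusted p = 1.05e-09). The fall to day 2 in KO (-0.44, limma adjusted p = 0.0042) did not pass without KO mouse 532 (adjusted p = 0.0652). Glb1 shares 165 exon bases with Tmppe on the same strand.

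Hexa, the alpha subunit of beta-hexosaminidase, and Gm2a, the activator that presents gangliosides to it, both ended above day 0 by different courses. Hexa measured 1130, 883 and 883 FPKM in WT at day 0, 404, 381 and 395 at day 2, 758, 818 and 772 at day 3 and 1373, 1318 and 1357 at day 4, so that it fell (log2 difference -1.28, SE 0.111, limma adjusted p = 2.27e-09) and then rose past its starting level (log2 difference 0.49, SE 0.109, limma adjusted p = 0.000362). Gm2a (chromosome 11, 55098115 to 55113029, plus strand) measured 81.9, 57.1 and 56.5 FPKM in WT at day 0, 54, 61.3 and 55.6 at day 2 and 132, 155 and 163 at day 4. Its first 2 days overlapped, and day 4 lay above both (log2 difference 1.21, SE 0.208, limma adjusted p = 2.33e-05). In KO, Gm2a went from 61.1, 54.8 and 64.9 FPKM at day 0 to 134, 162 and 190 at day 4, where its 3 mice spread more than on day 0. Hexa in KO measured 801, 841 and 777 FPKM at day 0, 429, 421 and 389 at day 2 and 1353, 1473 and 1441 at day 4. Arsa (arylsulfatase A) and Asah1 (acid ceramidase) rose by 0.88 and 0.52 in WT by day 4 (limma adjusted p = 3.63e-06 and 0.00164), and day 2 overlapped with day 0 for both. In KO the rise of Asah1 (0.47, limma adjusted p = 0.00362) was lost with only the groups compared (adjusted p = 0.0532) and without KO mouse 481 (0.29, adjusted p = 0.107).

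Psap, the precursor of the saposins that activate sphingolipid hydrolases, had the highest mean FPKM of the 37 (2757 over all 24 samples; chromosome 10, 60277627 to 60302597, plus strand). It measured 9444, 6235 and 5684 FPKM in WT at day 0, 928, 982 and 997 at day 2, 1278, 1392 and 1283 at day 3 and 2086, 2212 and 2215 at day 4. WT mouse 480 was high at day 0, and every later sample lay far below every day 0 sample. In KO it measured 6062, 5846 and 6179 FPKM at day 0, 978, 993 and 949.6 at day 2 and 2018, 2199 and 2134 at day 4. Psap fell by day 2 (log2 difference -2.84, SE 0.134, limma adjusted p = 2.69e-13), rose in both later steps (0.44 and 0.72, limma adjusted p = 0.000191 and 2.19e-06) and stayed below day 0 at day 4 (log2 difference -1.68, SE 0.132, limma adjusted p = 4.48e-10). Gla, alpha-galactosidase A, did the same at a lower level, from 76.2 ± 2.39 FPKM in WT at day 0 to 30.4 ± 1.74 at day 2 and 45.3 ± 1.25 at day 4 (SD, n = 3; log2 difference -0.74, SE 0.086, limma adjusted p = 1.4e-07).

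**Figure D4:**
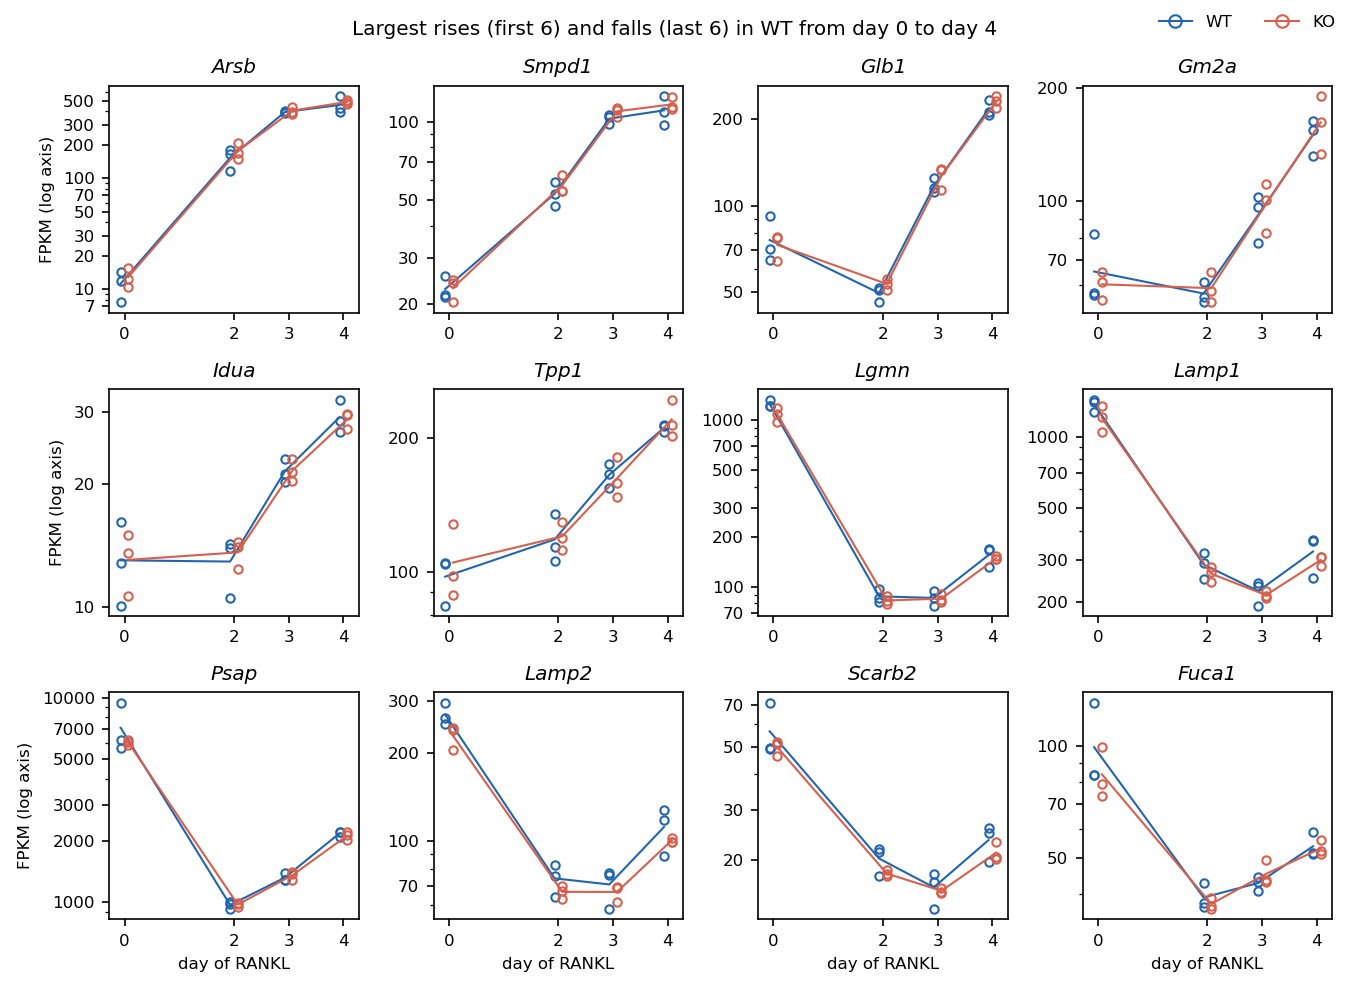
FPKM on a log axis against day of RANKL for the 6 genes with the largest rise and the 6 with the largest fall in WT from day 0 to day 4. Open circles are samples of single mice, lines join group means, and blue is WT and red KO; in most panels the genotypes' circles overlap on each day.

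Among the 6 lysosomal membrane glycoproteins and tetraspanin, 5 fell from day 0 to day 2 in WT and 4 in KO, and all 6 rose from day 3 to day 4 in WT. Of all genes 37.5% fell by day 2 in WT and 36.5% in KO, and 19% rose from day 3 to day 4 in WT. The fall of Laptm5 by day 2 was lost in WT without mouse 480 (adjusted p = 0.0996) and in KO without mouse 481 (adjusted p = 0.0599). In the step from day 3 to day 4, Cd68 was not called without WT mouse 480 (adjusted p = 0.146) or 531 (adjusted p = 0.23), nor with equal weights or only the groups compared. Cd63 was not called there without mice 480 and 481 (adjusted p = 0.061). From day 0 to day 4, 2 rose and 3 fell in WT, and 3 rose and 3 fell in KO. Lamp1 (chromosome 8, 13159161 to 13175338, plus strand) measured 1433, 1403 and 1272 FPKM in WT at day 0, 250.4, 292 and 321 at day 2, 193, 241 and 233 at day 3 and 253, 365 and 362 at day 4. In KO it measured 1043, 1209 and 1345, 243, 279.9 and 267, 207, 222 and 212 and 309, 311 and 283 FPKM on those days. All later samples lay below all day 0 samples (log2 difference -2.08, SE 0.184, limma adjusted p = 2.72e-09 in WT). Unlike most members it fell again from day 2 to day 3 (-0.37 in WT and -0.30 in KO, limma adjusted p = 0.0123 and 0.0447), and without WT mouse 531 that step did not pass in WT (adjusted p = 0.0752). Lamp1 was the 1 gene called lower in that step in KO, and 0 genes were with equal weights or without any of KO mice 481, 528 and 532 or WT mouse 529. From day 3 to day 4 it rose by 0.54 in WT (limma adjusted p = 0.000808).

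Lamp2, which lines the lysosomal membrane with LAMP1, went from 296, 250.5 and 263 FPKM in WT at day 0 to 64.3, 75.9 and 82.5 at day 2 and 88.8, 128 and 118 at day 4. Every day 4 sample was below every day 0 sample, and WT mouse 480 was the lowest of the 3 at day 4 (log2 difference -1.28, SE 0.183, limma adjusted p = 2.37e-06). Scarb2, the receptor that carries glucocerebrosidase to the lysosome, went from 71.5, 49.2 and 49.4 FPKM in WT at day 0 to 17.6, 21.2 and 21.7 at day 2, 13.4, 16.6 and 17.8 at day 3 and 19.6, 25.8 and 24.9 at day 4 (log2 difference -1.23, SE 0.166, limma adjusted p = 1.17e-06 at day 4). It fell from day 2 to day 3 by 0.32 on the log2 scale in WT with overlapping samples (limma adjusted p = 0.0151). That call was lost with equal weights (adjusted p = 0.0577) and with only the groups compared (adjusted p = 0.0684), and when WT mouse 529 was left out (adjusted p = 0.0593).

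The other 3 membrane proteins were not called lower at day 4. Cd68, a LAMP-family protein of macrophages and osteoclasts, had the second highest mean of the set, 1955 FPKM. It measured 2001, 1726 and 1448 FPKM in WT at day 0, 1366, 1711 and 1303 at day 2 and 2506, 2289 and 2743 at day 4, and day 2 overlapped with day 0 while day 4 lay above it (log2 difference 0.55, SE 0.193, limma adjusted p = 0.0127). Without WT mouse 531 that call was lost (0.37, adjusted p = 0.177). Cd63, a tetraspanin of late endosomes and lysosomes, measured 1326, 788 and 1011 FPKM in WT at day 0, 578, 482 and 641 at day 2 and 1044, 958 and 1030 at day 4. It fell by day 2 (log2 difference -0.85, SE 0.19, limma adjusted p = 0.000419) and overlapped with day 0 again at day 4 (difference -0.01, limma adjusted p = 0.954; 0.15 and adjusted p = 0.534 without WT mouse 480). In KO it measured 827, 866 and 543 FPKM at day 0 and 1088, 1072 and 998 at day 4 and rose by 0.53 (limma adjusted p = 0.0144), a call lost without KO mouse 532 (0.35, adjusted p = 0.116). The KO minus WT difference in that change was not called. A pseudogene, Cd63-ps, matches its transcript at 98.02% over 858 bases, so the level of Cd63 is uncertain. Laptm5, a lysosomal membrane protein of blood cells, rose from 614 ± 159 to 959 ± 69.9 FPKM in WT (SD, n = 3; log2 difference 0.67, SE 0.162, limma adjusted p = 0.000818). In KO, Cd68 rose by 0.53 and Laptm5 by 0.68 (limma adjusted p = 0.0172 and 0.000785), with Cd68 not called without KO mouse 528 (0.36, adjusted p = 0.202), while Lamp2 and Scarb2 differed by -1.18 and -1.20 (limma adjusted p = 7.3e-06 and 1.72e-06).

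Of the 6 genes of lipid export and membrane transport, 3 rose and 2 fell from day 0 to day 4 in WT, and 4 rose and 2 fell in KO. Among these the rise of Npc1 in KO was lost without KO mouse 481 (adjusted p = 0.0776) or 528 (adjusted p = 0.102). Npc2, the soluble protein that hands cholesterol to NPC1, measured 633, 470 and 523 FPKM in WT at day 0, 329, 314 and 369 at day 2, 498, 533 and 513 at day 3 and 794, 819.8 and 866 at day 4. It fell by day 2 and stood above day 0 at day 4 (-0.68 and 0.62, limma adjusted p = 7.13e-05 and 0.000137). Its membrane partner Npc1 overlapped between days 0 and 2 and went from 61.5, 51.3 and 43.2 FPKM at day 0 to 84.5, 79.5 and 69.1 at day 4 in WT (log2 difference 0.58, SE 0.172, limma adjusted p = 0.00421). Ctns, the cystine exporter, rose by 0.65 in WT and 0.70 in KO by day 4 (limma adjusted p = 0.000111 and 4.68e-05). Lipa, the acid lipase that frees cholesterol from its esters, fell: 776, 533 and 765 FPKM in KO at day 0, 246, 264 and 281 at day 2 and 416, 402 and 413 at day 4. No day 4 sample of Lipa reached a day 0 sample in KO (log2 difference -0.73, SE 0.195, limma adjusted p = 0.00203), and the WT difference was -0.62, a call lost without WT mouse 480 (-0.37, adjusted p = 0.0519). Cln3, a membrane protein mutated in juvenile Batten disease, fell from 41 ± 11 to 28.5 ± 2.11 FPKM in WT (SD, n = 3; log2 difference -0.48, SE 0.129, limma adjusted p = 0.00199). Leaving out WT mouse 480 ended that call (-0.22, adjusted p = 0.129), and leaving out KO mouse 481 ended the KO call (-0.28, adjusted p = 0.135). The lysosomal calcium channel gene Mcoln1 fell by day 2 (log2 difference -0.89, SE 0.122, limma adjusted p = 1.58e-06 in WT) and at day 4 measured 47.7 ± 4.77 FPKM against 40.8 ± 7.78 at day 0 (SD, n = 3; limma adjusted p = 0.0762). With equal weights (adjusted p = 0.0397), with the mouse as a block (adjusted p = 0.0494) and when WT mouse 480 was left out (0.31, adjusted p = 0.0229) that difference was called. In KO it rose over the course, from 36.1 ± 2.9 to 48.3 ± 0.741 FPKM (SD, n = 3; log2 difference 0.41, SE 0.12, limma adjusted p = 0.00394).

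Among the 5 genes of glycoprotein and glycogen breakdown, 2 rose, 2 fell and Man2b1 was not called from day 0 to day 4 in each genotype. Manba, beta-mannosidase, rose from 19.7 ± 1.12 FPKM at day 0 to 28.5 ± 2.52 at day 2 and 41.1 ± 3.19 at day 4 in WT (SD, n = 3; log2 difference 1.02, SE 0.106, limma adjusted p = 2.84e-08). Gaa, the acid alpha-glucosidase that degrades glycogen, measured 44.3 ± 7.09, 37.5 ± 4.07 and 82.2 ± 7.39 FPKM on those days (SD, n = 3; log2 difference 0.89, SE 0.136, limma adjusted p = 5.73e-06 at day 4). Fuca1, alpha-fucosidase (chromosome 4, 135920735 to 135940311, plus strand), measured 130.5, 83.5 and 83.6 FPKM in WT at day 0, 37.8, 37 and 42.9 at day 2 and 51.2, 51.6 and 58.6 at day 4. WT mouse 480 was high at day 0 and no later sample reached the day 0 range (log2 difference -0.84, SE 0.136, limma adjusted p = 1.1e-05). The sialidase gene Neu1 fell from 57.5 ± 4.35 to 38.8 ± 2.5 FPKM (SD, n = 3; log2 difference -0.56, SE 0.091, limma adjusted p = 1.28e-05). Man2b1, alpha-mannosidase, spread from 53.98 to 128.1 FPKM at day 0 in WT, and its difference at day 4 was 0.15 (limma adjusted p = 0.439). It was called without WT mouse 480 (0.53, adjusted p = 0.0148) and turned to -0.16 without WT mouse 531 (adjusted p = 0.477). In KO the differences over the course were 1.10 for Manba, 0.90 for Gaa, -0.64 for Fuca1 and -0.38 for Neu1, all past the threshold, and 0.01 for Man2b1.

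The remaining 5 genes encode peptidases, a thioesterase, a phosphatase and progranulin. Lgmn, the asparaginyl endopeptidase legumain (chromosome 12, 102394084 to 102439813, minus strand), had the largest fall of all 37. It measured 1328, 1209 and 1221 FPKM in WT at day 0, 81.3, 86.2 and 97.2 at day 2, 77.7, 95.6 and 85.7 at day 3 and 131, 167 and 168 at day 4. In KO it measured 971, 1178 and 1092 FPKM at day 0, 82.5, 88.4 and 79.2 at day 2, 81.5, 90.6 and 84.4 at day 3 and 154, 147 and 147 at day 4. Days 2 and 3 overlapped, and day 4 lay between them and day 0 without overlap. The difference was -3.81 (SE 0.144, limma adjusted p = 9.15e-15) at day 2, and the step from day 3 to day 4 was 0.84 (limma adjusted p = 9.08e-07), with -3.01 in WT and -2.84 in KO over the course. Tpp1, tripeptidyl peptidase (chromosome 7, 105744811 to 105752235, minus strand), was the member of this group that rose in both genotypes, from 104, 105 and 84 FPKM in WT at day 0 to 214, 213 and 207 at day 4 (log2 difference 1.11, SE 0.152, limma adjusted p = 1.27e-06). Grn, progranulin, whose fragments work in the lysosome, measured 1800, 1394 and 1512 FPKM in WT at day 0, 384, 389.9 and 419 at day 2 and 919, 820.1 and 896 at day 4. It fell by day 2 and recovered in part (-1.97 and -0.83, limma adjusted p = 1.06e-12 and 2.73e-07). The thioesterase gene Ppt1 fell from 90.4 ± 5.57 to 28.8 ± 1.92 FPKM by day 2 and stood at 65.3 ± 1.51 at day 4 (SD, n = 3; log2 difference -0.46, SE 0.1, limma adjusted p = 0.000295). Acp2, lysosomal acid phosphatase, was not called in WT from day 0 to day 4, with 33.5 ± 3.49 FPKM at day 0 and 38.7 ± 3.73 at day 4 in WT (SD, n = 3; limma adjusted p = 0.154; 0.36 and adjusted p = 0.0146 without WT mouse 480). In WT it fell by day 2 (-0.35, limma adjusted p = 0.0229), a call lost without WT mouse 480 (adjusted p = 0.0948) or 531 (adjusted p = 0.0873), and rose from day 3 to day 4 (0.39, limma adjusted p = 0.000785). Over the course it rose in KO from 28.7 ± 4.06 to 37.1 ± 1.72 (log2 difference 0.37, SE 0.132, limma adjusted p = 0.0159), which was lost without KO mouse 481 (adjusted p = 0.0919) or 528 (adjusted p = 0.0618). In KO the differences were 1.08 for Tpp1, -0.61 for Grn and -0.38 for Ppt1.

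Some of these genes share bases with others. Exons of 12 of the 37 overlap another gene in the GENCODE vM21 annotation of GRCm38, from which the positions above are taken, and for 11 of the 12 the other gene lies on the opposite strand. Besides Arsb and Glb1 these are Acp2, Arsa, Cln3, Grn, Hexa, Idua, Lamp1, Npc1, Ppt1 and Sgsh, with overlaps of 68 to 839 bases at the longest. Without strand, reads of the members and of these neighbours cannot be told apart. The transcript of Mcoln1 has a stretch of 400 bases that matches A230057D06Rik at 95%, so reads there are uncertain too.

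The comparison of the genotypes asks whether lack of STING changes these genes before or during RANKL. None of the 37 differed between KO and WT by limma on any day, nor did the change from day 0 to day 4. Over all genes, 0.00992% were higher and 0.0893% lower in KO at day 0, 0.0198% and 0.00992% at day 2, 0.0198% and 0% at day 3, 0.0298% and 0% at day 4, and 0.0397% and 0.00992% in the change. At an unadjusted p below 0.05 stood 1, 0, 1 and 1 of the 37 at days 0, 2, 3 and 4 and 2 in the change, where 1.96%, 1.01%, 3.55%, 1.7% and 1.44% of all genes did so. With equal weights these were 6, 0, 0 and 0, and 4 in the change. The shares of all genes above belong to the fit weighted by day. Shares with equal weights are not given here, so the equal-weight counts cannot be judged against them. The median difference, KO minus WT, was -0.05 at day 0, 0.01 at day 2, 0.04 at day 3 and 0.03 at day 4. Of the 37 differences 23, 14, 11 and 13 were negative on these days.

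The intervals give the uncertainty of each gene's difference without adjustment over all genes. A call needed that adjustment, so differences larger than a half-width could also go unseen. The median half-width of the 95% interval was 0.35 at day 0, 0.19 at day 2, 0.16 at day 3 and 0.18 at day 4 on the log2 scale. In the simulated data described below, each changed gene was given a difference larger than these half-widths. Between genotypes, weights by day recovered 105 of 200 such genes at day 0 and 176 of 200 at day 4. Over the 37 genes the intervals reached from -0.97 to 0.79 at day 0, from -0.41 to 0.53 at day 2, from -0.30 to 0.39 at day 3 and from -0.38 to 0.40 at day 4. For the change from day 0 to day 4 the median half-width was 0.39 and the intervals reached from -0.76 to 1.09.

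**Figure D5:**
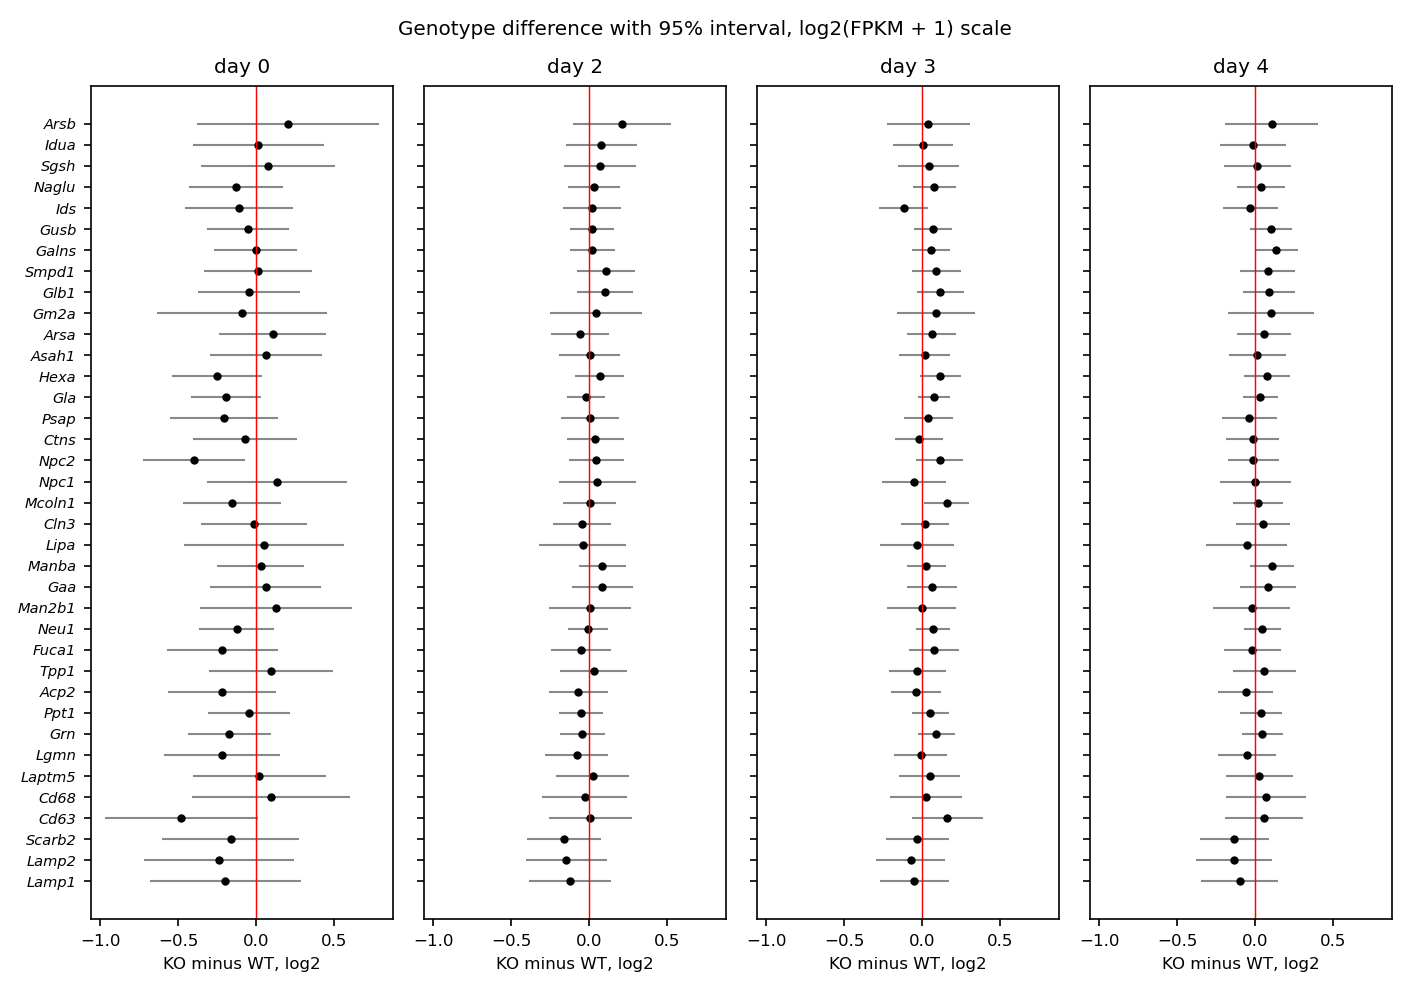
KO minus WT difference of each of the 37 genes at days 0, 2, 3 and 4 on the log2(FPKM + 1) scale, with 95% intervals from limma. The red line marks no difference; intervals are widest at day 0, and single intervals that leave out 0, such as Npc2 at day 0, did not pass adjustment.

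At day 0 the genes with the smallest unadjusted p were Npc2, Cd63 and Hexa, all lower in KO. Npc2 measured 633, 470 and 523 FPKM in WT and 412, 449 and 366 in KO, without overlap (difference -0.40, interval -0.73 to -0.07, limma adjusted p = 1). At day 4 its samples overlapped, 794, 819.8 and 866 against 790.4, 867 and 804 FPKM, and the rise from day 0 to day 4 was larger in KO by 0.39 (interval 0.02 to 0.76, limma adjusted p = 0.999). Cd63 at day 0 measured 1326, 788 and 1011 FPKM in WT and 827, 866 and 543 in KO, with overlap and KO mouse 532 low (difference -0.48, interval -0.97 to 0.01). Hexa at day 0 measured 1130, 883 and 883 FPKM in WT and 801, 841 and 777 in KO, just without overlap (difference -0.25, interval -0.54 to 0.04). For Hexa and Cd63 the change to day 4 differed by 0.33 and 0.54 (limma adjusted p = 0.999 each). These 3 differences did not pass over all genes. KO samples lay below WT samples without overlap at day 0 for 5 of the 37, Gla, Hexa, Lamp2, Lgmn and Npc2, and above them for 0, where 3.65% of all genes lay below and 2.23% above.

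On the RANKL days the differences were smaller. At day 2 the smallest p belonged to Scarb2 (-0.16, interval -0.40 to 0.08), Arsb (0.21, interval -0.11 to 0.53) and Smpd1 (0.11, interval -0.08 to 0.30), and samples overlapped for all 37. Of all genes 1.64% lay above and 2.27% below without overlap. At day 3 Mcoln1 measured 33.9, 33.7 and 30.2 FPKM in WT and 34.3, 38.6 and 36.5 in KO, without overlap (difference 0.16, interval 0.01 to 0.30, limma adjusted p = 0.934). Hexa and Glb1 stood at 0.12 (interval -0.01 to 0.25) and 0.12 (interval -0.03 to 0.27) with overlap, and KO lay above WT without overlap at day 3 for 4 of the 37, Gla, Galns, Gusb and Mcoln1, and below it for 0, as did 3.96% and 3.51% of all genes. At day 4 Galns measured 33.2, 26.6 and 28.4 FPKM in WT and 32.9, 32.6 and 31.3 in KO, with overlap (difference 0.14, interval 0.00 to 0.27, limma adjusted p = 1). Manba and Gusb stood at 0.11 (interval -0.03 to 0.25) and 0.10 (interval -0.03 to 0.23), and samples overlapped for all 37. Of all genes 2.34% lay above and 1.64% below without overlap. A p that misses the threshold does not show that the genotypes express these genes alike.

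Other genes of the lysosome were taken from fixed lists. Of 29 further hydrolases and cofactors 27 were tested: 17 fell and 6 rose by day 2 in WT, 19 rose and 1 fell from day 2 to 3, and 19 rose and 0 fell from day 3 to 4. By day 2, 37.5% of all genes fell and 38.5% rose. In the later steps 24.9% rose and 24.2% fell from day 2 to 3, and 19% rose and 19.8% fell from day 3 to 4. From day 0 to day 4, 12 rose and 12 fell in WT and 13 and 10 in KO, where 39.2% and 42.7% of all genes did so in WT and 38.6% and 40.8% in KO. Hyal1, a hyaluronidase, went from 1.99 ± 0.599 to 33.1 ± 8.24 FPKM in WT (SD, n = 3; log2 difference 3.50, SE 0.325, limma adjusted p = 5.7e-09). Hpse, heparanase, fell from 46 ± 18.5 to 5.99 ± 1.91 FPKM (log2 difference -2.72, SE 0.289, limma adjusted p = 3.99e-08), and Plbd1 from 8.26 ± 4.72 to 0.52 ± 0.113 (log2 difference -2.50, SE 0.198, limma adjusted p = 5.18e-10). Among 35 listed names of further membrane proteins, Slc66a1 and Pqlc2 stand for the same gene, and 31 genes were tested. In WT 18 fell and 5 rose by day 2, and 12 rose and 16 fell by day 4 (13 and 15 in KO), set against the same shares of all genes. The transporter genes Abca2 and Mfsd12 rose by 3.28 and 2.81, and Slc15a3 and Slc11a1 fell, with differences of -3.14 and -2.12 (limma adjusted p between 1.64e-10 and 3.52e-09). Slc11a1, a metal exporter of phagosomes, went from 304 ± 60.6 to 69.4 ± 12.7 FPKM (SD, n = 3).

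In the delivery route of hydrolases, Gnptab and Igf2r rose while Sort1 fell. Of 24 listed genes of mannose phosphate and sortilin delivery 23 were tested, 7 rose and 10 fell by day 4 in WT (median -0.15; 6 and 10 in KO), where 39.2% of all genes rose and 42.7% fell in WT. Gnptab, which encodes the catalytic part of the enzyme that makes the mannose phosphate tag, went from 15.4 ± 2.18 FPKM in WT at day 0 to 99.1 ± 18.7 at day 2 and 214 ± 27.6 at day 4 (SD, n = 3; log2 difference 3.71, SE 0.186, limma adjusted p = 4.07e-13). Igf2r, the large receptor of that tag, went from 11.2 ± 3.34 to 68 ± 8.51 FPKM (log2 difference 2.53, SE 0.185, limma adjusted p = 1.5e-10). Sort1, sortilin, a receptor of the other route, fell from 18.8 ± 2.94 to 4.2 ± 1.1 FPKM (log2 difference -1.94, SE 0.183, limma adjusted p = 7.27e-09), and Cln6 from 56.7 ± 3.07 to 25.4 ± 1.85 (log2 difference -1.13, SE 0.15, limma adjusted p = 8.8e-07). In KO the differences of Gnptab, Igf2r and Sort1 were 3.65, 2.29 and -2.29.

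Among the regulators of lysosomal genes, the 4 MiT-TFE family genes took different courses in WT. Tfeb went from 49 ± 21.1 FPKM at day 0 to 14.1 ± 0.827 at day 2 and 18.3 ± 0.91 at day 4 (SD, n = 3; log2 difference -1.29, SE 0.171, limma adjusted p = 8.28e-07). Tfe3 also fell, from 62.6 ± 8.42 to 30.2 ± 2.42 FPKM (log2 difference -1.02, SE 0.102, limma adjusted p = 1.59e-08). Mitf was highest at day 2, at 30.7 ± 2.2 FPKM against 14.9 ± 2.4 at day 0 and 15.3 ± 0.825 at day 4 (differences 1.0 and 0.04, limma adjusted p = 8.85e-08 and 0.74). Tfec went from 23.9 ± 4.02 to 42.4 ± 1.85 FPKM (log2 difference 0.82, SE 0.127, limma adjusted p = 6.71e-06). Tfe3, Mitf and Tfec were chosen after their values were seen, as the rest of that family. Of the list with the mTORC1 platform genes, 17 were tested, 5 rose and 8 fell by day 4 in WT (6 and 7 in KO), beside the 39.2% and 42.7% of all genes. Rragd, a Rag GTPase of that platform, went from 1.6 ± 0.557 to 7.86 ± 1.13 FPKM and Mtor from 2.45 ± 0.428 to 7.48 ± 0.662 (SD, n = 3; differences 1.78 and 1.30). Lamtor4, listed as 0910001L09Rik, fell from 216 ± 47.3 to 64 ± 3.35 FPKM (log2 difference -1.71, SE 0.214, limma adjusted p = 3.95e-07). None of the tested genes on these 4 lists differed between KO and WT on any day by limma.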

How the data were processed

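RNA of 24 samples (6 mice on 4 days) was sequenced, and the authors deposited 1 table of FPKM values for 10721 genes. Per the submitters' processing notes, HISAT2 2.0.5, Cufflinks 2.2.1, Cuffdiff and mm10 were used; not given in the sources used here are the annotation, the strandedness of counting and the rule that chose the genes, and genes outside the table could not be tested. The FPKM scale holds no absolute depth, so counting error is unknown. From the values, 10081 genes that reached a group mean of 1 FPKM on any day in either genotype were kept, and log2(FPKM + 1) was fitted with limma 3.58.1 in R 4.3.3: 8 group means, a shared spread per gene with a trend (16 residual degrees of freedom), and sample weights estimated by day (0.355, 1.20, 1.70 and 1.38 for days 0, 2, 3 and 4). Weights were used because equal weights gave false calls at day 0 on simulated data, in which the spread of each day was taken from these data. Between genotypes, equal weights gave 373 false calls at day 0 and weights by day gave 6. At day 4 equal weights gave 2 and weights by day gave 11. Tests were two-sided, with Benjamini-Hochberg adjustment over all genes in each of 13 comparisons and a threshold of 0.05; intervals are at 95%.

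The 37 genes, the companion lists (other hydrolases, other membrane proteins, delivery, fusion and positioning, mTORC1 platform with MiT-TFE regulators) and the markers (osteoclast, macrophage, neutrophil, B cell, T or NK cell, erythroid, stromal) were chosen with earlier results of these data known. Genes were named by rule: the 6 largest rises and falls from day 0 to day 4, the 3 largest of each later step in WT, the 3 smallest p between genotypes where none passed, the 5 highest means and, per companion list, the 2 largest rises and falls; other members stand in their role group. From the companion lists, 1 gene that the rule named is not reported here. The replicate is the mouse, and p-values measure the spread between mice within groups, pooled over all 8 groups. The main fit held no mouse term, so its comparisons between days were unpaired. Samples of 1 mouse are paired across days because they come from the same animal; their deviations from the group means correlated with a median r of 0.136 for WT mice, where 10 of 18 pairs were above 0.1, and 0.261 for KO mice, where 17 of 18 were, and the mouse as a block was 1 of the alternatives. The others were a pseudocount of 0.1, no filter, a filter at 5 FPKM, median scaling, equal weights, only the groups compared, leaving out each of 6 mice and leaving out mice 480 and 481 together. Positions came from GENCODE vM21, and promoter sequences from RefSeq (GRCm38.p6).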

Additional observations from a re-analysis of the deposited data

How the results depend on the processing

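The 13 comparisons gave 26 counts of members called higher or lower, and each was recomputed under 14 alternatives. Of these values 352 stayed within 1.5 times the main count and 12 did not. All 12 concern members lower from day 2 to day 3. In WT this count was 2, and it was 1 with equal weights, 1 with only the groups compared and 1 to 2 when each mouse was left out. In KO it was 1, and it was 0 with equal weights, 2 with only the groups compared, 2 without mice 480 and 481 and 0 to 2 when each mouse was left out. The cause was not tested. Of the 240 member calls between days, 195 held under every alternative and 45 were lost under at least 1. Calls held under every alternative for 21 of 30 members higher from day 3 to day 4 in WT and 23 of 32 in KO, and from day 0 to day 4 for 18 of 20 higher and 11 of 13 lower in WT and 18 of 23 and 11 of 13 in KO. Over 260 single results, which are these calls, all day 4 against day 0 differences and the named genotype differences, 3511 of 3640 values kept direction and call, 116 lost the call, 8 gained it and 5 changed sign. No called difference changed sign. The 5 were Cd63 in WT (0.15 without mouse 480, and 0.15 without mice 480 and 481) and Man2b1 (-0.16 in WT without mouse 531, and in KO -0.037 with median scaling and -0.24 without mouse 528), each from day 0 to day 4. When each mouse was left out, Man2b1 ranged from -0.16 to 0.53 in WT and from -0.24 to 0.22 in KO. With the mouse as a replicate block, 21 members were higher and 13 lower at day 4 than at day 0 in WT, 23 and 13 in KO, and 0 differed between genotypes, so the block moved no count by over 1.5 times. Absolute depth is unknown from FPKM. Within groups, the commonest ratio of low FPKM values was 0.688 and 0.685 for WT mice 480 and 529 over 531 at day 3. For the other pairs it ran from 0.936 to 1.173. The day 3 library of mouse 531 had 120 genes at 0, against 78 and 63, as a library with fewer reads would. Leaving out mouse 531 is among the alternatives above. Day 0, with the lowest weight, limits the comparison of the genotypes most.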

Other observations

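Genes that move lysosomes and fuse them with other membranes were tested as a further list, since osteoclasts release lysosomal content at the bone surface. Of 26 listed genes 23 were tested. From day 0 to day 2, 17 fell and 3 rose in WT, and 14 fell and 3 rose in KO. Of all genes 37.5% fell and 38.5% rose in WT, and 36.5% fell and 37.1% rose in KO. From day 0 to day 4, 5 rose and 10 fell in WT and 5 and 9 in KO (median -0.12 and -0.07). Over that course 39.2% of all genes rose and 42.7% fell in WT, and 38.6% and 40.8% in KO, so the falls were near the share of all genes. Rab7, the small GTPase of late endosomes and lysosomes, went from 124 ± 55.1 FPKM in WT at day 0 to 294 ± 51.9 at day 2 and 412 ± 16.9 at day 4 (SD, n = 3; log2 difference 1.82, SE 0.242, limma adjusted p = 9.17e-07). Vps39, a subunit of the HOPS tethering complex that RAB7 recruits, went from 18.9 ± 2.59 to 57.8 ± 5.81 FPKM (log2 difference 1.57, SE 0.12, limma adjusted p = 3.19e-10). Rab7b, listed as 5430435G22Rik, fell from 159 ± 47.4 to 21.3 ± 5.01 FPKM (log2 difference -2.83, SE 0.217, limma adjusted p = 3.16e-10). Bloc1s1, a shared subunit of the BLOC-1 and BORC complexes, fell from 178 ± 36.5 to 75.7 ± 10.5 FPKM (log2 difference -1.21, SE 0.192, limma adjusted p = 8.78e-06). In KO the differences at day 4 were 1.34 for Rab7, 1.59 for Vps39, -2.67 for Rab7b and -0.81 for Bloc1s1. None of the 23 differed between KO and WT on any day by limma.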
